A study of Mus musculus with 6 samples.

Results

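The tricarboxylic acid cycle is the ring of mitochondrial enzymes that oxidizes acetyl groups, and succinyl-CoA ligase is the enzyme of the ring that turns succinyl-CoA into succinate. The genes described here are 9 cycle genes, chosen by name: Cs, Idh2, Idh3a, Ogdh, Suclg1, Suclg2, Sucla2, Fh1 and Mdh2. All 15 array probes annotated to them were taken, of 45281 probes in all, and 13 of the 15 were bright enough to test, of 19217 tested probes. The genes were chosen with the differences between the groups of these same arrays known. Their differences are therefore given as a description, with no p-value.

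Each sample was measured on 1 Illumina bead array, which gives a brightness per probe. The cells were follicular B cells, selected by an antibody to CD23, from the spleens of 3 mice of the C57BL/6 strain that carried a floxed yy1 (yy1 f/f), a gene flanked by sites at which Cre recombinase cuts. Both groups carried this genotype. The cells of each spleen were divided, and 1 portion was mock treated while the other received TAT-CRE, a Cre protein that enters cells, to delete yy1, which encodes a zinc finger transcription factor. Both portions were then grown for 72 hours in RPMI medium with LPS, IL4, OPI and 20% serum, a stimulus for immunoglobulin class switching, in which the study asked what part yy1 takes. The sources used here do not give the age of the mice. Each mouse gave 1 mock and 1 TAT-CRE array, so each group had 3 arrays, and this number limits the precision of every value. TAT-CRE treated cells that lack the floxed gene were not analysed here, so the loss of yy1 and the protein treatment cannot be told apart.

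In the cycle, acetyl-CoA joins oxaloacetate to form citrate, and a chain of dehydrogenases then releases carbon dioxide and hands electrons to the respiratory chain. Succinyl-CoA ligase stands at the step that also makes a nucleoside triphosphate. It is built from an alpha subunit, encoded by Suclg1, paired with 1 of 2 alternative beta subunits. That of Suclg2 makes the enzyme specific for GDP and GTP, and that of Sucla2 makes it specific for ADP and ATP. Activated B cells use the cycle both for energy and as a source of carbon for synthesis.

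Of the 3 ligase genes, Suclg2 differed far more between the groups than the others. A site with the letters of YY1 motifs lies near more than 1 annotated start of Ogdh. The regions around the annotated gene starts are therefore shown for the ligase genes and for 1 of those starts of Ogdh. Each runs 5′ to 3′ along the gene's strand, from 250 bases before the start to 50 bases after it, and comes from RefSeq on GRCm38.p6. Of the 9 genes, 8 had at least 1 such window and 13 windows in all. Capitals mark the motifs ATGGCG and CCATNTT, core letters of YY1 sites, on either strand. The Cs window, which holds CCATNTT but not ATGGCG, is not shown. In Suclg2, which holds neither, capitals mark the GC box GGGCGG on either strand.
Suclg2, chr6:95718797-95719096, minus strand: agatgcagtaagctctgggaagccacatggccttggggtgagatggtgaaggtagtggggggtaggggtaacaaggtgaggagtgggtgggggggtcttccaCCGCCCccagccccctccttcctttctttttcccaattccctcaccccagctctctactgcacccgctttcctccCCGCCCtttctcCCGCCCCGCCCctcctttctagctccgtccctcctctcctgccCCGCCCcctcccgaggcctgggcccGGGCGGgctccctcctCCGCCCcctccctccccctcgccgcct
Sucla2, chr14:73552536-73552835, plus strand: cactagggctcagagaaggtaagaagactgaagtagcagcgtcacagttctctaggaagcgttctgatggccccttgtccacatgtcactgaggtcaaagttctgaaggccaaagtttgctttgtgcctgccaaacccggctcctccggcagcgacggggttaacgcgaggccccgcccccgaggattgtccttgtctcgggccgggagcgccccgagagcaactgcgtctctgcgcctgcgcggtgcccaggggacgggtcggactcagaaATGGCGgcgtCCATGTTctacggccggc
Suclg1, chr6:73248255-73248554, plus strand: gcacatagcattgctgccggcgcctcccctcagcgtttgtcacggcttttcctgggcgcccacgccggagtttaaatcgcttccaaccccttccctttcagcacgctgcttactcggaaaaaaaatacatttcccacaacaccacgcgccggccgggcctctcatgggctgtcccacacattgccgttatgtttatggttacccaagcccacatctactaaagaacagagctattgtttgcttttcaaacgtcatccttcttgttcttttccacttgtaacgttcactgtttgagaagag
Ogdh, chr11:6292308-6292607, plus strand: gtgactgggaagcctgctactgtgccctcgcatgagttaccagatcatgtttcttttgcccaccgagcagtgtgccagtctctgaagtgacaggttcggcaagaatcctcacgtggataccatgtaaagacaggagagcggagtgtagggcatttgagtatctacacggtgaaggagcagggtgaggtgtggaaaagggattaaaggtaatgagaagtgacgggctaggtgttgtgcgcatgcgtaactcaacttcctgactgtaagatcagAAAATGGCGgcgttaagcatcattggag

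Yy1 was checked first. Its probe read 455, 409 and 439 on the mock arrays of mice 1, 2 and 3 and 153, 140 and 134 on their TAT-CRE arrays, in deposited intensity. No TAT-CRE array had it above background, and on the deposited intensities it was at least 2.49-fold lower there, a bound set against the dimmest probes above background on those arrays. The sources used here do not say whether the probe reads the floxed part. Between 39.8% and 44.4% of probes were above background on each array. The r across probes was 0.99 between TAT-CRE arrays, 0.97 to 0.98 between mock arrays and 0.96 to 0.98 across the groups.

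Of the B cell markers, 5 of the 6 listed genes analysed here were above background on each array, with Cr2 above it on none. None of the 5 passed in limma. Cd79b and Ms4a1 were higher with TAT-CRE in all 3 mice, by log2 0.52 and 0.505, and their groups did not overlap. Fcer2a was lower in all 3 mice, at -0.25, while Cd22 differed by 0.15 and Cd74 by -0.02, and the groups of these genes overlapped. The T cell genes Cd3d, Cd3e, Cd3g and Cd8a, the NK cell genes Ncr1 and Klrb1c, the granulocyte genes S100a8 and S100a9, the erythroid Alas2 and the myeloid Itgam, Cd14 and Fcgr1 were above background on no array. Other markers of these cells were: the T cell gene Thy1 read between 4246 and 6683 on the 6 arrays, Cd4 was above background on 2 mock and 2 TAT-CRE arrays, the macrophage gene Adgre1 on all 6, and the erythroid gene Hba-a1 on 2 mock and 3 TAT-CRE arrays. For each of these 4 genes the groups overlapped. Lyz2 and Csf1r, also markers of monocytes and macrophages, and the NK cell gene Nkg7 were not above background on enough arrays to be tested. Each was above it on at least 1 array, and Nkg7 only on the TAT-CRE side. Siglech, a marker of plasmacytoid dendritic cells, had a log2 difference, TAT-CRE minus mock, of 1.16 (SE 0.17) and rose, with an adjusted p of 0.00106 in limma. The summed deposited intensity of the 3 dendritic cell markers ran from 903 to 1072 on mock and from 1332 to 1460 on TAT-CRE arrays, while Itgax was above background on no array. The other of the 3, Zbtb46, was lower with TAT-CRE in all 3 mice, at -0.42, and did not pass, so the higher sum came from Siglech. The part of these cells in the results below was not tested.

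Suclg2 was much lower with TAT-CRE than in mock cells. Its bright probe had a deposited intensity of 2016, 2236 and 1874 on the mock arrays of mice 1, 2 and 3 and of 663, 561 and 555 on their TAT-CRE arrays. Each TAT-CRE value lay far below every mock value, and all 6 arrays were above background. The group means were 2042 ± 182 (SD, n = 3) and 593 ± 61.1, a ratio of 3.45 on the deposited scale. On log2 values after background correction and quantile normalization, the scale of every difference below, Suclg2 fell by 1.97 (SE 0.17, 95% confidence interval -2.33 to -1.60), which is 3.91-fold. The differences within mice 1, 2 and 3 were -1.75, -2.20 and -1.95. In bulk RNA of this kind, fewer cells that express a gene and less RNA of it per cell cannot be told apart.

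Suclg2 was the 1 of 13 tested probes of these genes that passed an adjusted p of 0.05 in limma over all probes, and 6.41% of all tested probes passed in that direction, 6.17% in the other and 12.6% in either. As the genes were chosen with this comparison in view, nothing is read from that count. By the brightest probe of each gene, 20 of 9932 tested genes had a difference below that of Suclg2, and the median over all genes was 0.02. A second Suclg2 probe read 134, 158 and 164 on mock and 131, 131 and 130 on TAT-CRE arrays, was above background on none, and was not tested. The Suclg2 result therefore rests on 1 probe.

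**Figure D1:**
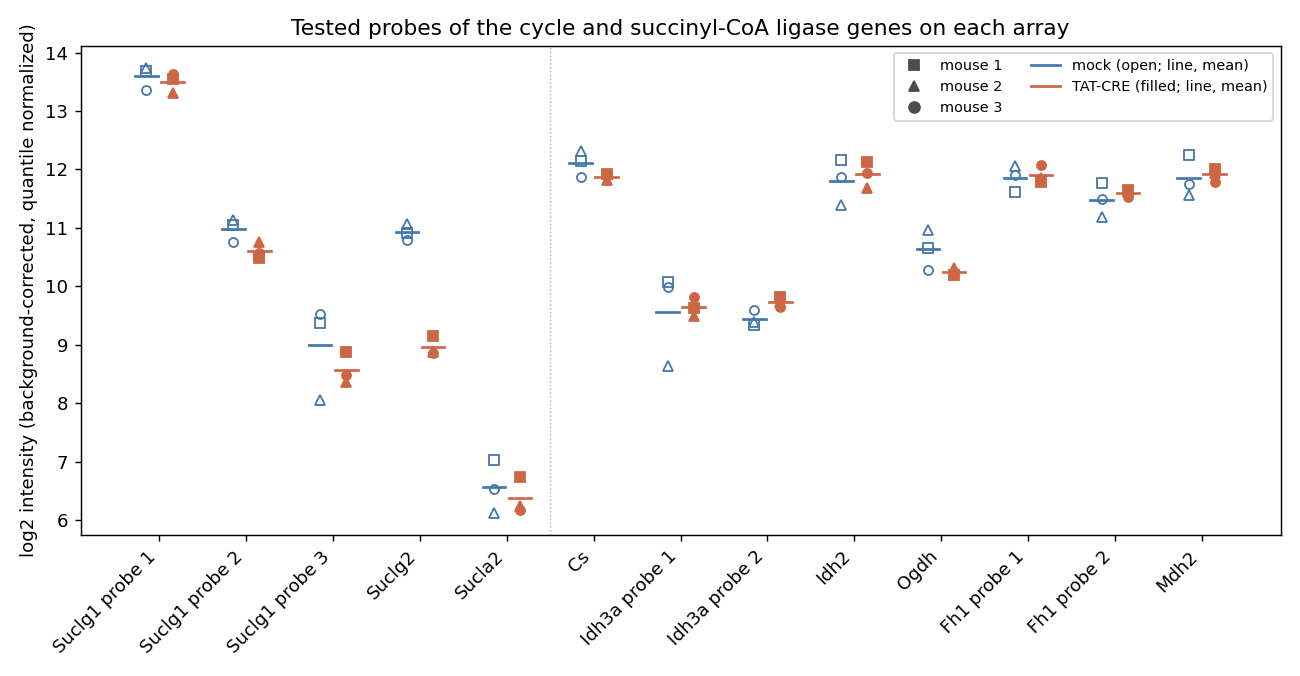
Log2 intensity (y axis, background-corrected and quantile normalized) of the 13 tested probes (x axis) on each of the 6 arrays, with mock open, TAT-CRE filled, 1 symbol shape per mouse and a line at each group mean. Ligase subunits lie left of the dotted line, heights of different probes cannot be compared, and the Suclg2 groups lie 1.97 apart while those of the other probes lie 0.42 apart or less.

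Suclg1, the partner subunit gene, had values far closer between the groups. Its brightest probe had deposited intensities of 13306, 13724 and 10638 on the mock and 12140, 10221 and 12762 on the TAT-CRE arrays of mice 1, 2 and 3. The groups overlapped, and the log2 difference was -0.10 (SE 0.18, 95% confidence interval -0.48 to 0.28). A second probe read 2215, 2334 and 1826 against 1524, 1828 and 1620, was lower in all 3 mice and differed by -0.37 (95% confidence interval -0.75 to 0.00), and its groups overlapped by a narrow margin, at mock 3 and TAT-CRE 2. The dimmest read 758, 360 and 834 against 562, 420 and 451 and differed by -0.42 (95% confidence interval -1.11 to 0.27). None of the 3 Suclg1 probes passed. Mock 2 was the lowest array for the dimmest probe, and without it that probe differed by -0.89 and passed, the 1 other call among the 13 probes under any alternative.

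Sucla2, the other beta subunit gene, sat near the background. Its only probe read 222, 163 and 185 in deposited intensity on mock and 199, 168 and 165 on TAT-CRE arrays, and was above background on 2 mock and 1 TAT-CRE array. The groups overlapped, with a log2 difference of -0.18 (95% confidence interval -0.69 to 0.33), lower in 2 mice and higher in 1. So dim a probe gives little hold on the level of Sucla2 RNA in either group.

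Among the enzymes before the ligase, Cs encodes citrate synthase, which starts the cycle. It read 4630, 5196 and 3821 in mock against 3952, 3690 and 3940 in TAT-CRE cells, with a log2 difference of -0.23 (95% confidence interval -0.60 to 0.14), and the groups overlapped. Idh2, the mitochondrial NADP-dependent isocitrate dehydrogenase, read 4672, 2777 and 3819 against 4567, 3389 and 4036 and differed by 0.11 (95% confidence interval -0.35 to 0.58). In both groups of Idh2 mouse 2 was lowest and mouse 1 highest, and the groups overlapped.

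Idh3a encodes the catalytic subunit of the NAD-dependent isocitrate dehydrogenase, and its probes did not rank the arrays alike. The brighter had deposited intensities of 1166, 490 and 1105 on mock and 885, 812 and 998 on TAT-CRE arrays, with mock 2 far below the rest, and a log2 difference of 0.08 (95% confidence interval -0.59 to 0.76). The other read 740, 766 and 863 against 999, 941 and 895. It was higher with TAT-CRE in all 3 mice, its groups did not overlap, and it differed by 0.29 (95% confidence interval -0.06 to 0.64) without passing. Of the 13 tested probes, 2 had groups that did not overlap, this one and that of Suclg2, against 31.9% of all tested probes (15.5% lower and 16.4% higher with TAT-CRE).

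Ogdh encodes the decarboxylating subunit of the 2-oxoglutarate dehydrogenase complex, which makes succinyl-CoA. Its bright probe read 1705, 2094 and 1335 in mock against 1263, 1360 and 1307 in TAT-CRE cells. It was lower in all 3 mice, by only 0.03 in mouse 3, and differed by -0.38 (SE 0.19, 95% confidence interval -0.80 to 0.03). The TAT-CRE arrays lay close together, and the lowest mock array lay below the highest of them. A second Ogdh probe, between 124 and 157 on all arrays, was above background on none and was not tested.

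After the ligase, Fh1 encodes fumarase. Its brighter probe read 3215, 4341 and 3916 against 3642, 3790 and 4426 and differed by 0.06 (95% confidence interval -0.33 to 0.44). The other read 3592, 2416 and 2970 against 3292, 3218 and 3056 and differed by 0.11. Mock 2 was the highest mock array for the first probe and the lowest for the second. Mdh2, the mitochondrial malate dehydrogenase that closes the cycle, read 4977, 3112 and 3552 against 4222, 4042 and 3631 and differed by 0.06 (95% confidence interval -0.37 to 0.49). The groups of all 3 probes overlapped.

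**Figure D2:**
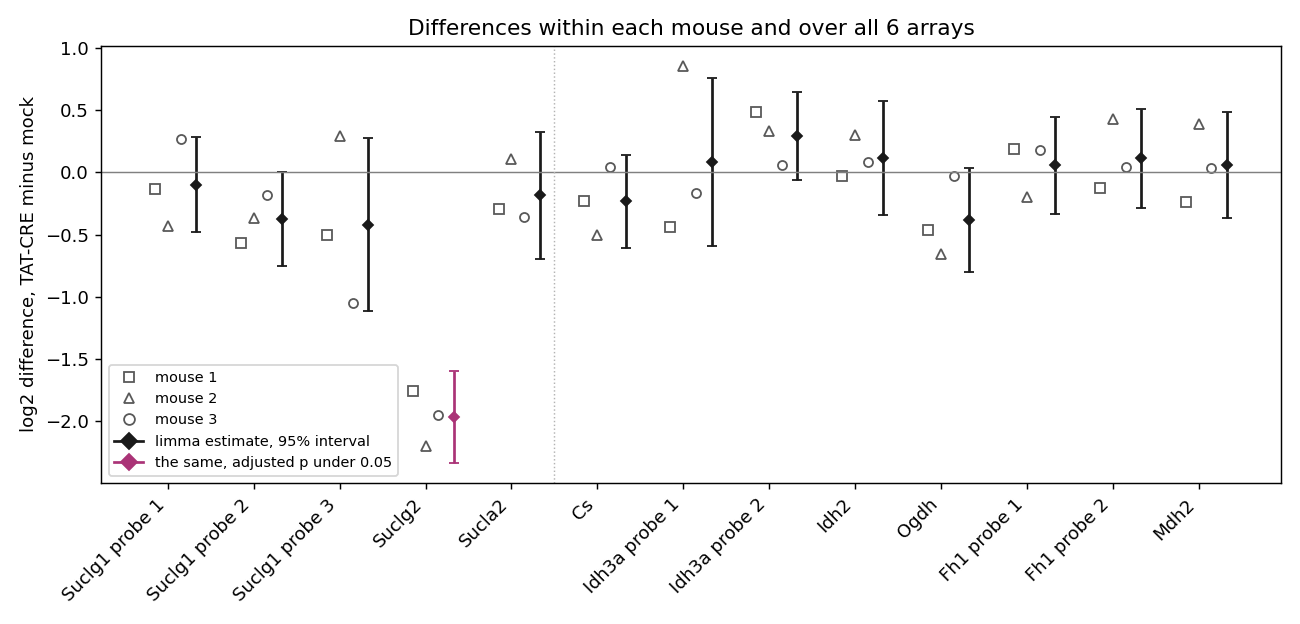
Log2 difference, TAT-CRE minus mock (y axis), of each tested probe (x axis) within each of the 3 mice (open symbols) and as the limma estimate with its 95% confidence interval (diamonds). The Suclg2 interval runs from -2.33 to -1.60, and the intervals of Suclg1, Sucla2 and the other enzymes lie above it.

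The ligase subunits were then set against the other cycle enzymes. With each gene at its brightest tested probe, the mean log2 difference over Suclg1, Suclg2 and Sucla2 was -0.73, -0.84 and -0.68 in mice 1, 2 and 3, and over the other 6 enzymes -0.20, 0.03 and 0.02. The first minus the second was -0.70 ± 0.17 (SD, n = 3 mice). Without Suclg2, a setting added after the values were seen, it was -0.09 ± 0.09. Suclg2 minus the other 6 enzymes was -1.55, -2.23 and -1.97. The 8 genes other than Suclg2 differed by between -0.38 and 0.11, with 4 below and 4 above 0 and a median of -0.02. This contrast was in view when the genes were chosen, and it carries no test.

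**Figure D3:**
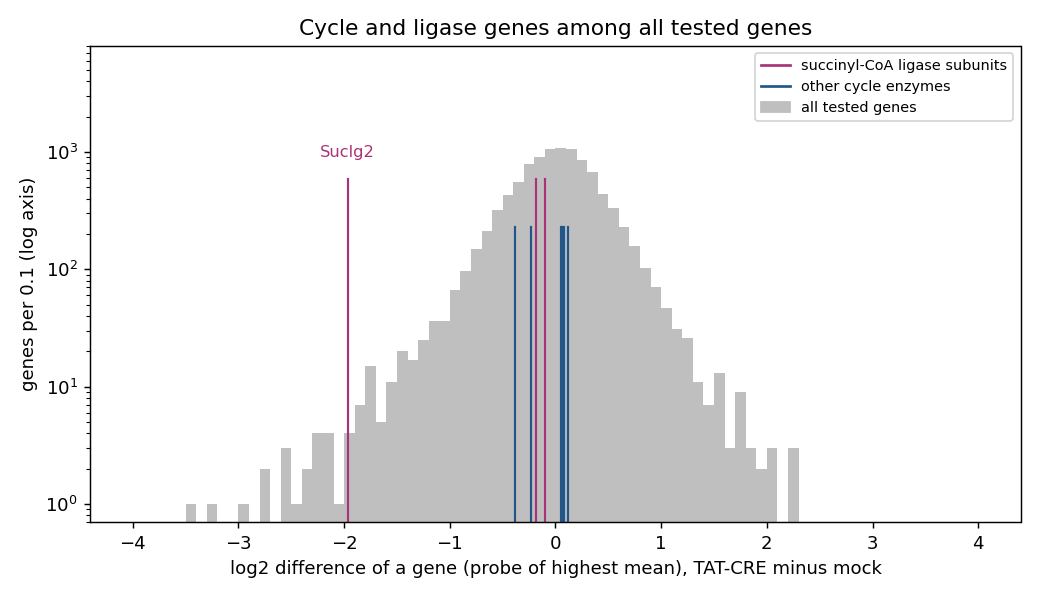
Number of genes (y axis, log scale) per 0.1 of log2 difference, TAT-CRE minus mock (x axis), over 9932 tested genes, with lines at the 3 ligase subunits (purple) and the other 6 cycle enzymes (blue). Suclg2 lies in the lower tail at -1.97, and the other 8 genes lie between -0.38 and 0.11.

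The spread among arrays within a group is described next, with no test. A call weighs a difference against this spread, so it is not independent of a choice made with the differences known. Over all tested probes the median SD of log2 values was 0.23 in mock and 0.15 in TAT-CRE, and the SD was larger in mock for 67.2% of probes. Of the 13 probes of the cycle genes, some of which share a gene, it was larger in mock for 12, with medians of 0.30 and 0.15. Suclg2 was the exception, with an SD of 0.13 in mock and 0.17 in TAT-CRE. Mock 2 was the lowest mock array for 6 of the 13 probes, the highest for 6 and between the others for 1.

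Genes whose pattern over the 6 arrays lay nearest to a ligase gene were found by the root mean square difference of log2 values, each gene centred on its own mean. For Suclg2 they were Lars2, the mitochondrial leucyl-tRNA synthetase, at 0.13, the transcription factors Batf3 at 0.14 and Cux1 at 0.15, Oasl1 at 0.15 and Mrps18b, a protein of the mitochondrial ribosome, at 0.18. These 5 genes had log2 differences between -1.82 and -1.74. The distance takes in the arrays of both groups, so a like fall follows from how they were found and is no separate result. For Suclg1 they were Tbcb, a tubulin folding factor, at 0.02, Tbc1d15 at 0.04, and Kyat3, Tmem186 and Cd74, the invariant chain of MHC class II, each at 0.05. For Sucla2 they were Snai3 at 0.08, Spcs2, a signal peptidase subunit, and Smndc1 at 0.09, Slamf1 at 0.10 and Ngly1 at 0.11. None of the genes nearest to Suclg1 or Sucla2 passed, which follows in the same way, and the neighbours of Sucla2 match a probe close to background.

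The windows printed above differed in their letters. The Suclg2 window held ATGGCG on neither strand, nor CCATNTT. It held GGGCGG 7 times over both strands, and 0.627% of the 32851 RefSeq windows used held at least as many. The letters G and C, on which that count depends, made up 67.7% of the Suclg2 window. That share was lower in 86.8% of all windows, whose median was 52.7%. The Sucla2 window held ATGGCG and CCATNTT, 22 and 32 bases after the first transcribed base. Suclg1 held none of the motifs searched. In 2 of the 6 Ogdh windows, which share these bases, ATGGCG overlapped CCATNTT on the opposite strand, at 1 site, and the Cs window held CCATNTT alone.

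Over all windows 8.93% held ATGGCG and 16.1% held CCATNTT. Other motifs were the NRF1 letters TGCGCA (7.76% of all windows, and Mdh2 and Ogdh here) and the ETS letters CCGGAAG (8.86%, and none of the cycle genes). The ERR letters AAGGTCA were in 4.72% and the E box CACGTG in 7.15%, and of the cycle genes only Ogdh held either. The CCAAT box CCAAT was in 37.4% of all windows and in 10 of the 13 windows of the cycle genes, from 5 of the 8 genes. The GC box GGGCGG was in 35.7% of all windows and in 10 of those 13, from 7 of the 8 genes. Ogdh has several of the 13 windows, some of which overlap, so a share of windows and a count of genes cannot be compared directly. A match is a run of letters and not a bound site, and no match says nothing of sites outside the window.

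The other genes around the cycle came from 8 lists of 79 genes, of which 55 had a tested probe. The lists, too, were chosen with earlier results of these data known. Their counts and p-values are therefore a description, and no direction for the pathway is read from them. Of these 55, 6 fell and none rose in limma, which is 10.9% against 13.9% of all 9932 genes by their brightest probe (6.85% lower and 7.08% higher). At an unadjusted p under 0.05 in limma, 13 of the 55 were lower and 1 higher, where 14.3% of all genes were lower and 14.5% higher. Their median log2 difference was -0.05, against 0.02 over all genes. The 6 were Pccb, Gpt2, Ppargc1b, Myc, Slc25a1 and Sdhc. Without both arrays of mouse 2, or of mouse 3, 3 of them passed, namely Pccb, Gpt2 and Ppargc1b. These 3 passed under each of the 18 alternatives run, while the call was lost in 4 for Myc, 5 for Slc25a1 and 9 for Sdhc.

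Of 7 tested genes that encode further cycle subunits, 1 fell. Sdhc, a membrane anchor of succinate dehydrogenase, read 1671, 2176 and 1709 in mock and had a log2 difference of -0.60 (SE 0.17, limma adjusted p = 0.0372). Leaving out mock 2, mock 3, any 1 TAT-CRE array or any 1 mouse ended that call, with adjusted p up to 0.177. The other anchor, Sdhd, differed by -0.37 (adjusted p = 0.155), lower in all 3 mice. The 3 probes of Sdhb, the iron-sulphur subunit, differed by -0.16, -0.03 and 0.38, and none passed. Dlst, the succinyltransferase of the 2-oxoglutarate dehydrogenase complex, differed by -0.47 at its brightest probe (adjusted p = 0.124) and by between -0.42 and -0.11 at 4 more. The partners of Idh3a, Idh3b and Idh3g, differed by 0.06 and 0.43 (adjusted p = 0.862 and 0.243), and Dld, shared by several dehydrogenase complexes, by 0.08. Without mock 2, Idh3g differed by 0.66 and passed (adjusted p = 0.04996), the 1 higher call of a listed gene under any alternative run.

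Around the ligase's own substrates, 1 of 9 genes fell. This was Pccb, the beta subunit of propionyl-CoA carboxylase, which leads propionyl-CoA towards succinyl-CoA. It read 1122, 1039 and 1189 in mock, with a mean of 310 in TAT-CRE cells, and its groups did not overlap. The log2 difference was -2.24 (SE 0.16, limma adjusted p = 1.24e-05), and a second, dimmer probe also passed at -1.85. Its partner subunit Pcca differed by -0.14 (adjusted p = 0.647) and Mcee, the next enzyme of that route, by 0.24 (adjusted p = 0.357). Alas1, which uses succinyl-CoA for haem, differed by -0.09 (adjusted p = 0.765), and Oxct1, which uses it to activate ketone bodies, by 0.34 (adjusted p = 0.532). A second Oxct1 probe differed in the other direction, by -0.44 (adjusted p = 0.214). Among the listed genes, further probes are given only for cycle subunits, called genes and Oxct1, the last because its probes differ in sign. The other listed genes are given by their brightest probe alone, although some had more, such as Pcca with 3 tested probes.

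Among 9 cytosolic counterparts and feeder enzymes, Gpt2, the mitochondrial alanine transaminase that yields 2-oxoglutarate, fell by 1.37 (SE 0.19, limma adjusted p = 0.000714) and the other 8 did not pass. Idh1, the cytosolic isocitrate dehydrogenase, differed by -0.51 (adjusted p = 0.0674) and the ATP citrate lyase Acly by -0.44 (adjusted p = 0.0904), and both passed with no background correction and with array weights. Glud1, glutamate dehydrogenase, differed by 0.34 (adjusted p = 0.189). Of 5 carriers, Slc25a1, which exports citrate, fell by 0.79 (SE 0.17, limma adjusted p = 0.00983) and by 0.82 at a second probe. That call ended without TAT-CRE 1, at an adjusted p of 0.0567, and without any 1 mouse, at up to 0.0874. The aspartate and glutamate carrier Slc25a13 differed by -0.60 (adjusted p = 0.0576). It passed with the filter at the 99th percentile and with the mean of the tested probes of each gene.

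None of 8 pyruvate entry genes passed in limma (1 at an unadjusted p under 0.05), and their differences ran from -0.46 to 0.03. Pdpr, a regulator of pyruvate dehydrogenase phosphatase, was lowest (adjusted p = 0.0904), and it passed with no background correction and with array weights. None of 6 lipoylation and succinate dehydrogenase assembly genes passed in limma either (0 at an unadjusted p under 0.05), between -0.27 and 0.30. The 2 tested relatives, Adhfe1 and Acod1, each differed by 0.11. Of 9 regulators of mitochondrial genes, 2 fell. Ppargc1b, a coactivator of mitochondrial genes, differed by -1.34 (SE 0.17, limma adjusted p = 0.000492), and Myc by -0.98 (SE 0.22, adjusted p = 0.0146), a call that ended without TAT-CRE 2, at an adjusted p of 0.0677, and without mouse 2 or mouse 3, at up to 0.0944. Gabpb1 differed by -0.50 (adjusted p = 0.0622), Esrra by 0.51 (adjusted p = 0.0863), Nrf1 by 0.24 (adjusted p = 0.415) and Tfam by -0.05 (adjusted p = 0.888). Of these, Gabpb1 passed with a normexp offset of 50, with no background correction, with the filter at the 99th percentile and with array weights.

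**Figure D4:**
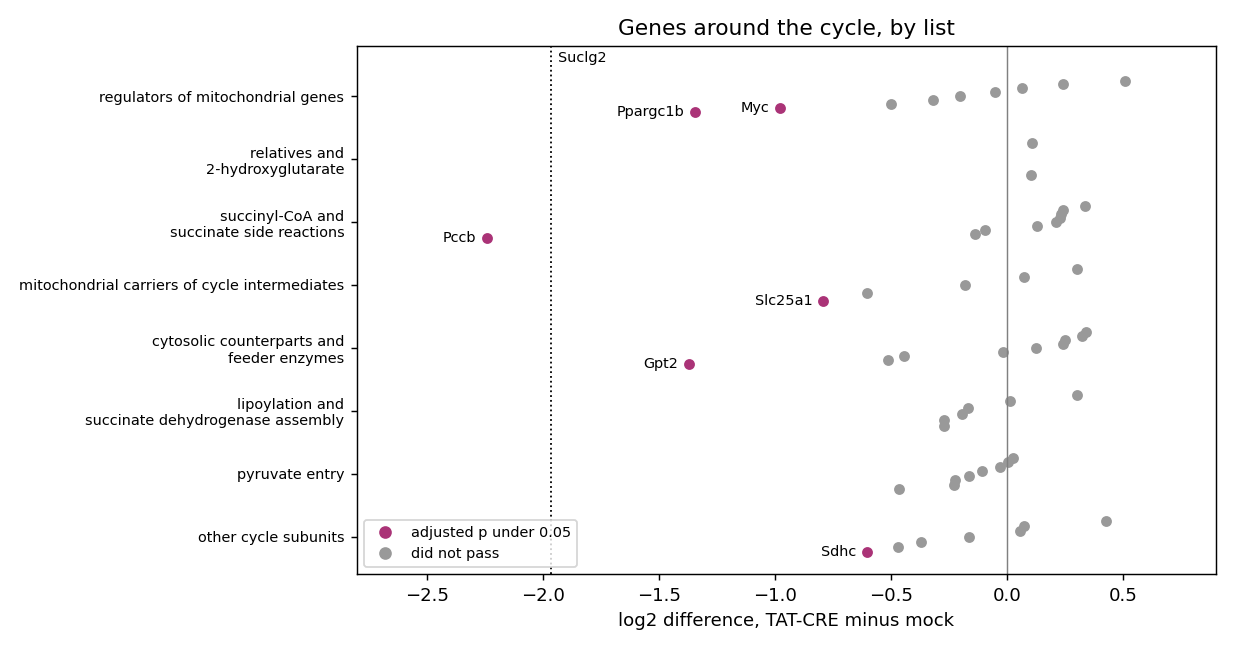
Log2 difference, TAT-CRE minus mock (x axis), of the 55 tested genes of 8 lists (y axis), 1 point per gene at its brightest probe, with the 6 genes past an adjusted p of 0.05 named in purple. The dotted line stands at the -1.97 of Suclg2, and Pccb at -2.24 is the 1 listed gene below it.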

How the data were processed

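The authors' deposited table holds a linear intensity for 45281 probes on 6 arrays, and the submitters' processing notes name GenomeStudio 1.8. Sorted values of its columns differ by at most 2.1, so it had been quantile normalized. A second deposited table has 12 columns that match no sample by name, and none was used, so detection p-values were replaced. A probe counted as above background over the 95th percentile of 1501 olfactory and vomeronasal receptor probes on its array, and was tested if so on at least 3 of 6 arrays. With limma 3.58.1 (R 4.3.3), intensities were background-corrected by normexp at an offset of 16, then quantile normalized and put on the log2 scale. The groups were compared without a mouse term, by limma's lmFit and eBayes (two-sided), p-values were adjusted by Benjamini and Hochberg's method over 19217 probes, and the threshold was an adjusted p of 0.05. A gene took its tested probe of highest mean, kept when arrays were left out.

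Of all probes, 1185 were called higher and 1231 lower, and the 2416 calls became 1165 to 1253 without any 1 TAT-CRE array and 581 to 1172 without both arrays of any 1 mouse. Same-numbered arrays come from the same mouse, per the labels' source names and the design text, and their deviations from the group means correlated at 0.12, 0.03 and 0.05 (r across probes). The genes and lists were chosen with earlier results of these data known. Genes named are the 9 with all their probes, Yy1, called genes of each list with up to 3 more of smallest p, the 5 nearest to each ligase gene, and, chosen after their values were seen, some partner subunits and regulators. Gene names are those of GEO's platform annotation. It names 1 gene for 34885 probes, more than 1 for 18 and no gene for 10378. Of the 34885, 34807 matched RefSeq genes of GRCm38.p6 by Entrez identifier. The alternatives changed the background step, the normalization, the filter, the probes of a gene, the model (a mouse block, array weights, a trended variance) or the arrays and mice used. The fit was tested on simulated data, where it recovered 1.49% of changes of log2 0.5, 49.3% of those of 1 and 97% of those of 2. A small difference that did not pass can therefore not be read as no change. Python 3.11.15 with matplotlib 3.10.9 drew the figures.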

Additional observations from a re-analysis of the deposited data

How the results depend on the processing

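Suclg2 passed under each of the 18 alternatives run, with log2 differences between -2.07 and -1.79. The number of probes called was 1063 with no filter on dim probes, and between 581 and 2265 with an array or a mouse left out. Calls among the 13 probes of the cycle genes numbered 1, or 1 to 2 with an array or a mouse left out, the second being a Suclg1 probe without mock 2. Calls among the listed genes numbered 10 with no background correction and with array weights, 3 with no filter on dim probes, and between 3 and 7 with an array or a mouse left out. The ligase minus other cycle genes value was -0.98 with the filter at the 99th percentile, which leaves out Sucla2, -0.091 without Suclg2 (a setting chosen after seeing the data), and between -0.79 and -0.61 with an array or a mouse left out. With the mouse as a replicate block 2634 probes were called, and no call among the cycle genes or listed genes changed. The differences of Suclg1, Fh1, Mdh2, Idh2, Idh3a and Sucla2 took both signs across alternatives, and none of these was called at the brightest probe. Dim probes (Sucla2, the second probes of Suclg2 and Ogdh) limit what can be said of those transcripts.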
